A study of Homo sapiens with 14 samples.

Results

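The 5 genes of the TFAP2 family, TFAP2A, TFAP2B, TFAP2C, TFAP2D and TFAP2E, were examined together with 60 kb of chromatin on each side of their gene bodies. They are 5 of the 20033 protein-coding genes that GENCODE release 44 gives for the autosomes, X and Y of hg38, and membership of the family decides the set. TFAP2C had served the study as an example gene on these same samples, so its position among the family is a description and not independent evidence.

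TFAP2 proteins, also called AP-2 factors, are transcription factors that bind as dimers to a GC-rich palindrome and recruit coactivators such as the histone acetyltransferases EP300 and CREBBP. TFAP2A and TFAP2B act in the neural crest, the face and the kidney, and TFAP2C acts in the trophectoderm, in germ cells and in naïve human pluripotent cells. TFAP2D and TFAP2E are known mainly from the nervous system.

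The chromatin came from 1 established line of human embryonic stem cells (hESCs), WIBR3, in both states. Naïve cells, which resemble the preimplantation epiblast, were kept in 5i/L/A medium, and primed cells, which resemble a later epiblast, were kept in conventional hESC conditions, in both cases on mouse feeder cells. Chromatin immunoprecipitation with sequencing (ChIP-seq) targeted the BAF remodelling complex through its exchangeable ATPases, BRG1 (gene SMARCA4) and BRM (gene SMARCA2), and its scaffold subunit BAF155 (gene SMARCC1), as well as the pluripotency factor SOX2. Of the 14 samples, 10 came with a peak list and 4 are inputs. The 2 SOX2 lists of a state had the same coordinates and were counted as 1 sample, and the rest of the groups had 1 library each. Replicate error could therefore not be given and no test between states was possible.

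The naïve lists held 57884 BRG1, 62338 BAF155, 17413 BRM and 1940 SOX2 peaks, and the primed lists 15611 BRG1, 58352 BAF155, 167 BRM and 9290 SOX2 peaks. Read depth was not used here, and a stretch without a peak may still bind protein at a level that was not called. The lists differ in length between states, so each count is given beside the same count over all genes. As a check of the state labels, all 7 naïve marker genes (KLF17, DPPA3, DPPA5, TFCP2L1, DNMT3L, SUSD2 and KLF4) had more naïve-only than primed-only BAF regions within 60 kb, as did 66.1% of all genes. Of the 6 primed marker genes (THY1, SFRP2, DUSP6, CD24, PTPRZ1 and SALL1), 5 had more primed-only regions, as did 4245 of all 20033 genes. The other 1, CD24, had more naïve-only ones. PTPRZ1 and SALL1 had served the study as primed example genes, so they are no independent check. A BAF region here is a BRG1 or BAF155 peak, or several merged where they touched or overlapped within a state. It is common where at least 25% of it or of its partner in the other state is shared, and otherwise naïve-only or primed-only.

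The sequences that carry the contrasts described below are shown first, read from hg38 on the plus strand, with searched motif words in capitals. The words were GCCNNNGGC for TFAP2, CATTGT or CTTTGT for SOX, ATGCAAAT for the octamer bound by OCT4, CCTGCTG for ZIC, and GGGCGTGGC, GGGTGTGGC, GGGCGGGGC or GGGTGGGGC for KLF, each on both strands. The first is the centre of the intergenic BRM peak 22.5 kb upstream of TFAP2C, at the site with the highest naïve BRG1 and BAF155 folds of that locus. It held a TFAP2 word. The centre of the BRM peak 11.4 kb upstream, which had a higher BRM fold, held none of the words and is not printed.

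TFAP2C, 22.5 kb upstream, chr20:56606709-56606908: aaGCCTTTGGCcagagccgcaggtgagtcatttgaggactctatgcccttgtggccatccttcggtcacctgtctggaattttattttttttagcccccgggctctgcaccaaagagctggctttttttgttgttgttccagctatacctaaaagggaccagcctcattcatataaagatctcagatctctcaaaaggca

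The next is the whole naïve BRM peak in an intron of TFAP2D, the site with the highest naïve fold of the family. None of the words occurred in it.

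TFAP2D, intron, chr6:50720716-50720916: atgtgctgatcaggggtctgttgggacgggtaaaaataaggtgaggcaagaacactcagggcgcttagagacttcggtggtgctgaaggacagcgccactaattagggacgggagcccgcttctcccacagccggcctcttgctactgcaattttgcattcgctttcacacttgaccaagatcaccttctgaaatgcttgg

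The last set comes from primed SOX2 peaks, since the family had no naïve SOX2 peak. For TFAP2C the whole peak is given, with 1 SOX word. For TFAP2A the 200 bases around the summits of the downstream peak and of the stronger of the 2 peaks in the gene body are given. Both hold a TFAP2 word, and the downstream one also holds a SOX word, read on the minus strand, which lies beyond the end of the called peak at base 10390327. For TFAP2E, where the peak lies at the start of the neighbouring KIAA0319L gene, 30 bases around an octamer are given. The whole TFAP2E peak held no SOX word. Nor did the 200 bases of the stronger TFAP2A peak in the gene body or the whole of the weaker one.

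TFAP2C, 33.0 kb upstream, chr20:56596154-56596378: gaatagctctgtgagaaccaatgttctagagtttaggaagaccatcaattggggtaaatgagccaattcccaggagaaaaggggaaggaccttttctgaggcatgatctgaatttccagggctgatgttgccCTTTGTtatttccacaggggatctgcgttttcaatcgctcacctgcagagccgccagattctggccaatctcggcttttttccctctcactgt
TFAP2A, downstream, chr6:10390153-10390352: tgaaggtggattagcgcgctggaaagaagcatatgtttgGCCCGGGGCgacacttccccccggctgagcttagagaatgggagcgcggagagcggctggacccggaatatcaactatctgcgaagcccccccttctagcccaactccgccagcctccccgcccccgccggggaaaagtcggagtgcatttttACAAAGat
TFAP2A, gene body, chr6:10417255-10417454: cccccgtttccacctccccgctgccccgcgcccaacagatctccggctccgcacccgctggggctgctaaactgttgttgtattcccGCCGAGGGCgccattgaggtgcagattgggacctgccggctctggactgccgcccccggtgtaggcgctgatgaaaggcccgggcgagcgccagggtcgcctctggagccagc
TFAP2E, upstream, chr1:35554969-35554998: taaatttctgaATGCAAATgtctttaggca

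A word match is a description of these letters and not a bound site. Among all naïve-only BAF regions, 10.7% held the TFAP2 word in their central 200 bp, 22.3% a SOX word and 2.76% the octamer. The printed SOX2 peaks lay in common or primed-only regions. Among all common regions these shares were 19.2%, 18.2% and 2.24%, and among all primed-only regions 6.21%, 34.9% and 3.61%.

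TFAP2C carried far more naïve BAF than any of its paralogues, whereas its primed counts lay within the range of the family. Its window held 22 naïve and 2 primed BRG1 peaks, 30 naïve and 5 primed BAF155 peaks, and 16 naïve and 0 primed BRM peaks. The corresponding naïve counts of the other 4 genes ranged from 4 to 9 for BRG1, from 3 to 13 for BAF155 and from 1 to 2 for BRM. The median protein-coding gene had 6 naïve BRG1, 6 naïve BAF155 and 1 naïve BRM peak in such a window, and 1 primed BRG1 and 5 primed BAF155 peaks. TFAP2C thus stood above the gene-wide median in all 3 naïve BAF lists and at or near it in the primed ones.

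**Figure D1:**
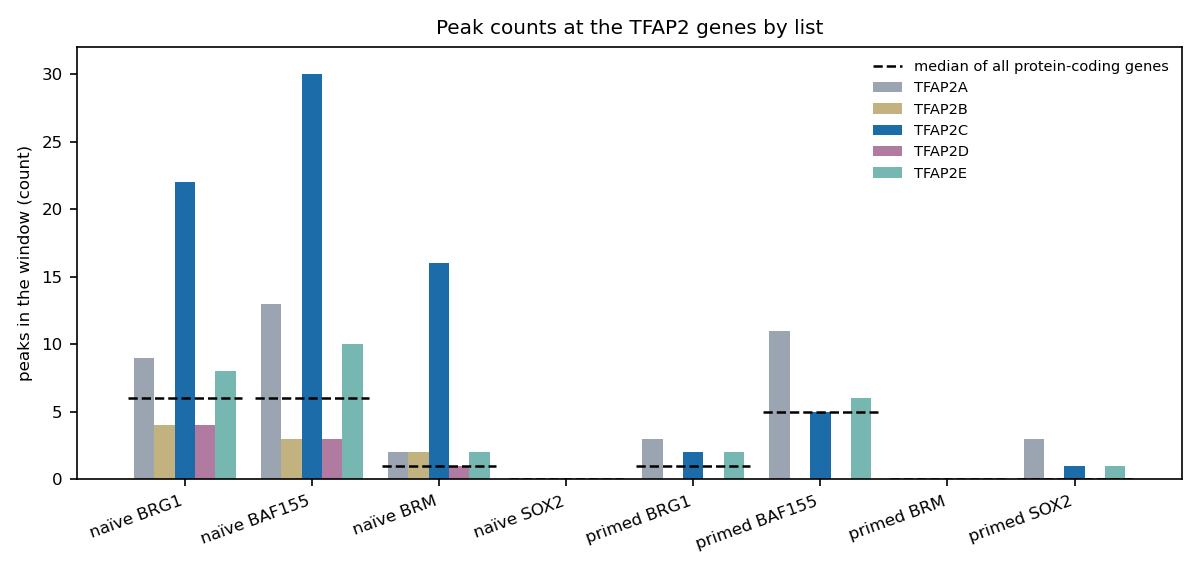
Number of peaks (vertical axis, count) in the gene body and 60 kb on each side for each of the 8 lists (horizontal axis), with 1 bar per TFAP2 gene and the median of all 20033 protein-coding genes as a dashed line. TFAP2C has the tallest bar in the naïve BRG1, BAF155 and BRM lists, with 22, 30 and 16 peaks, and TFAP2A has the tallest primed BAF155 bar, with 11.

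TFAP2A (ENSG00000137203.15, chr6:10393186-10419659, minus strand) came next in naïve counts. Its window held 9 naïve and 3 primed BRG1 peaks, 13 naïve and 11 primed BAF155 peaks, and 2 naïve and 0 primed BRM peaks. TFAP2E (ENSG00000116819.9, chr1:35573314-35595328, plus strand) had 8 naïve and 2 primed BRG1 peaks, 10 naïve and 6 primed BAF155 peaks, and 2 naïve and 0 primed BRM peaks. At both genes the BAF155 counts of the states lay closer together than at TFAP2C.

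TFAP2B (ENSG00000008196.13, chr6:50818723-50847619, plus strand) and TFAP2D (ENSG00000008197.5, chr6:50713526-50773033, plus strand) are neighbours on chromosome 6, 45.7 kb apart. TFAP2B had 4 BRG1, 3 BAF155 and 2 BRM peaks and TFAP2D 4 BRG1, 3 BAF155 and 1 BRM peak, all naïve. Neither window held any primed peak of BRG1, BAF155, BRM or SOX2. The windows share 74.3 kb and 1 naïve BRG1 peak, which lies 1.22 kb inside TFAP2B and is counted for both genes. A window with no primed BRG1 or BAF155 peak was found for 1266 protein-coding genes (6.32%). It was found for 227 (12.9%) of the 1756 genes that have no other coding gene in the window. TFAP2B and TFAP2D, each in the window of the other, are not among those 1756. Of all genes, 154 (0.769%) combined it with at least 1 naïve BRM peak.

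By the call used for every gene, a ratio of naïve to primed peaks, each plus 1, of at least 2 or at most 0.5, all 5 TFAP2 genes were naïve-higher for BRG1. So were 74.2% of all genes, and 0.958% were primed-higher, so this count says little of the family. For BAF155, TFAP2B, TFAP2C and TFAP2D were naïve-higher, against 18.0% of all genes, and none was primed-higher, against 10.4% of all genes. TFAP2A and TFAP2E passed neither limit for BAF155, with ratios of 1.17 and 1.57. For SOX2, TFAP2A, TFAP2C and TFAP2E were primed-higher, against 35.0% of all genes, and no member was naïve-higher, against 3.79%. At TFAP2C and TFAP2E the SOX2 call rests on 1 peak.

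Merging BRG1 and BAF155 into regions gave the state balance of each locus. TFAP2C (ENSG00000087510.7, chr20:56629306-56639283, plus strand) had 28 BAF regions in the naïve-only class, 4 in the common class and 1 in the primed-only class. Naïve-only regions thus made up 96.6% of its state-specific regions (exact 95% interval 82.2 to 99.9%, which covers counting error within these lists only). Across the genome the figure was 61.4%, from 48336 naïve-only and 30335 primed-only regions.

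TFAP2A had 5 naïve-only, 4 primed-only and 6 common regions, or 55.6% naïve-only (interval 21.2 to 86.3%). This is near an even split, and the direction turned with the setting, for example to 42.9% with 20 kb flanks and to 28.6% with naïve and primed lists of equal length. TFAP2E had 7 naïve-only, 2 primed-only and 3 common regions, or 77.8% (interval 40.0 to 97.2%). TFAP2B and TFAP2D had 5 and 4 naïve-only regions, of which 1 is shared, and neither had a primed-only or common region.

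With shared regions counted once, the 4 paralogues together had 20 naïve-only and 6 primed-only regions, or 76.9% naïve-only (interval 56.4 to 91.0%). TFAP2C lay 19.6 percentage points higher, and the interval of this difference, combined from both exact intervals, ran from -0.467 to 40.5 points. The interval thus reached just below 0, and whether it did depended on the setting: it lay wholly above 0 in 5 of the 10 alternatives, for example from 5.47 to 55.5 points with equal list lengths, and included 0 in the rest. TFAP2C differed from its paralogues more clearly in the number of naïve-only regions, at 28 in a 130 kb window against 4 to 7 in the windows of the paralogues, which are 142 to 180 kb long. This separation was not seen with 20 kb flanks, where TFAP2C and TFAP2E had 6 naïve-only regions each, TFAP2B had 4, and TFAP2A and TFAP2D had 3 each.

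**Figure D2:**
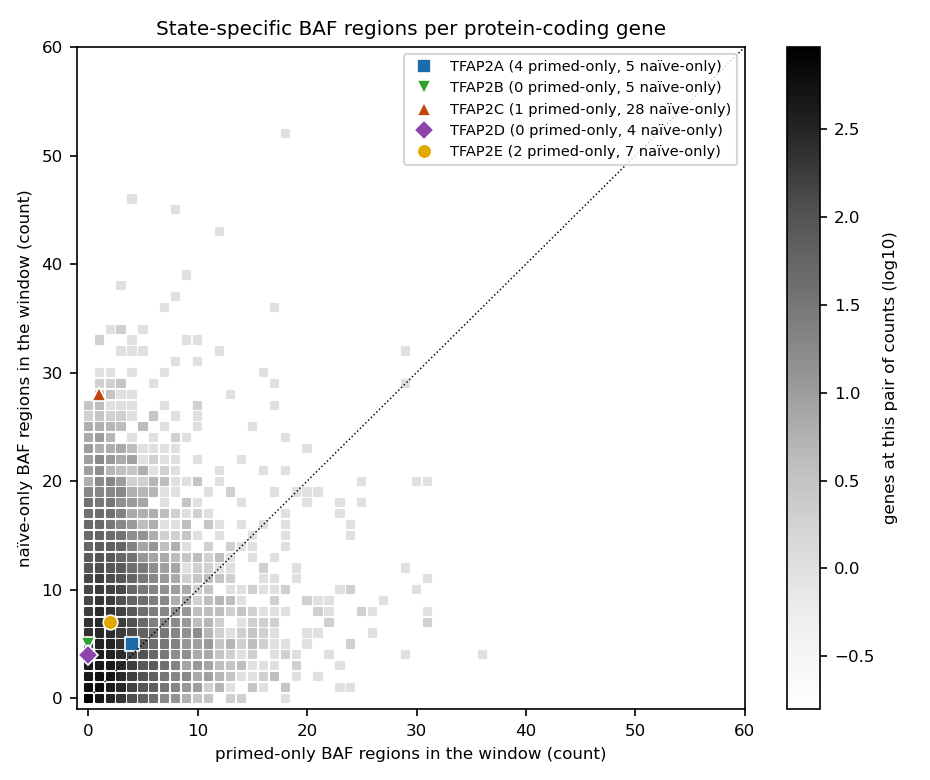
Naïve-only (vertical axis, count) against primed-only BAF regions (horizontal axis, count) in the window of each of the 20033 protein-coding genes. Grey squares give the number of genes at each pair of counts on a log10 scale, coloured symbols mark the 5 TFAP2 genes, and the dotted line marks equal counts. TFAP2C lies near the upper left edge at 28 and 1, and its paralogues lie in the dense part of the distribution with 4 to 7 naïve-only regions.

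Set against all genes, 49 of 20033 (0.245%) had at least as many naïve-only regions in their window as TFAP2C. This count and the similar ones below include TFAP2C itself. Only 8 genes (0.0399%), TFAP2C included, combined at least 28 naïve-only regions with at most 1 primed-only region. Corrected for window length, TFAP2C ranked 3 with 21.5 naïve-only regions per 100 kb, after AZU1 with 22.1 and MISP with 21.8. AZU1 and MISP are close to each other on chromosome 19 and share part of their windows with PTBP1 and PLPPR3, which ranked 4 and 5, so that stretch is 1 gene-dense locus counted for several genes. TFAP2C has no other coding gene in its window. Among the 1756 genes alone in their windows, 7 had at least 28 naïve-only regions.

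This position depended on how much chromatin and which peaks were counted. With 60 kb on each side of the most 5′ start instead of the gene body, 2 genes had at least as many naïve-only regions as TFAP2C. These were TFAP2C and AZU1, with 27 each. With 20 kb flanks, where TFAP2C had 6, 2984 genes had at least as many, TFAP2C included. None of the naïve BRG1 and BAF155 peaks at TFAP2C reached a fold of 4. With peaks below that fold left out, TFAP2C had 0 naïve-only and 1 primed-only region.

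For the single lists, 2.37% of genes had at least as many naïve BRG1 peaks as TFAP2C, 0.404% as many BAF155 peaks and 0.170% as many BRM peaks. In primed cells 45.5% of genes had at least its 2 BRG1 peaks and 59.2% its 5 BAF155 peaks. For TFAP2A the shares were 34.0% for naïve BRG1 and 20.8% for naïve BAF155, and 25.7% and 13.5% for the primed lists. Among all genes TFAP2A therefore ranked higher in primed than in naïve cells, which was the opposite order to TFAP2C. This depended on the background, since TFAP2A, like TFAP2C, has no other coding gene in its window. Among the 1756 such genes its shares were 12.8% for naïve BRG1 and 6.49% for naïve BAF155. For the primed lists they were 21.7% and 13.5%, so there TFAP2A ranked higher in naïve cells.

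Lists of equal length left the contrast at TFAP2C in place. With the 15611 BRG1 peaks of lowest q-value in each state, TFAP2C had 9 naïve and 2 primed peaks, and with 58352 BAF155 peaks in each state it had 29 and 5. TFAP2A then had 1 naïve and 3 primed BRG1 peaks and 11 BAF155 peaks in each state. TFAP2E had 1 and 2 BRG1 peaks and 10 and 6 BAF155 peaks. With 1940 SOX2 peaks in each state no SOX2 peak was left at any of the 5 genes, so the primed SOX2 peaks of the family all lay outside the 1940 of lowest q-value.

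The share of a window that lies under peaks does not count pieces, but a long peak also covers the gaps that separate pieces leave out. At TFAP2C naïve BAF155 peaks covered 20.5% of the window and primed ones 6.54%, and naïve BRG1 peaks covered 16.9% and primed ones 1.15%. At TFAP2A the order was turned for BAF155, with 7.22% covered in naïve and 12.2% in primed cells, where primed peaks had a median width of 1213 bp and naïve ones of 610 bp. Part of this order rests on joined peaks. At chr6:10411270-10415795, for example, 1 primed BAF155 peak of 4526 bp lay over naïve peaks of 610 and 418 bp. At TFAP2E both states covered similar shares for BAF155, 4.64% and 4.93%. At TFAP2B and TFAP2D naïve BAF155 covered 0.856% and 0.681% of the window and primed BAF155 covered 0%.

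The naïve-only regions of TFAP2C lay on both sides of the gene and not in it. Of the 28, 15 were upstream of the gene, 13 downstream and 0 in the gene body, from 56.7 kb upstream to 67.6 kb downstream of the gene start. By the annotation 20 were intergenic, 6 lay in introns and 2 at promoters, meaning within 1 kb of an annotated start. The introns and 1 of the promoters belong to LINC01716, a long noncoding RNA upstream of TFAP2C, and the other promoter to the pseudogene RPS4XP3. Their median width was 661 bp, against 422 bp for all naïve-only regions.

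The 32 naïve regions of TFAP2C, common ones included, followed each other with a median gap of 1.89 kb. The longest gap, 18.2 kb, separated the last region from the rest, between 49.2 and 67.4 kb from the gene start. At TFAP2A the median gap between 13 naïve regions was 3.63 kb and at TFAP2B, with 5 regions, 14.1 kb.

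**Figure D3:**
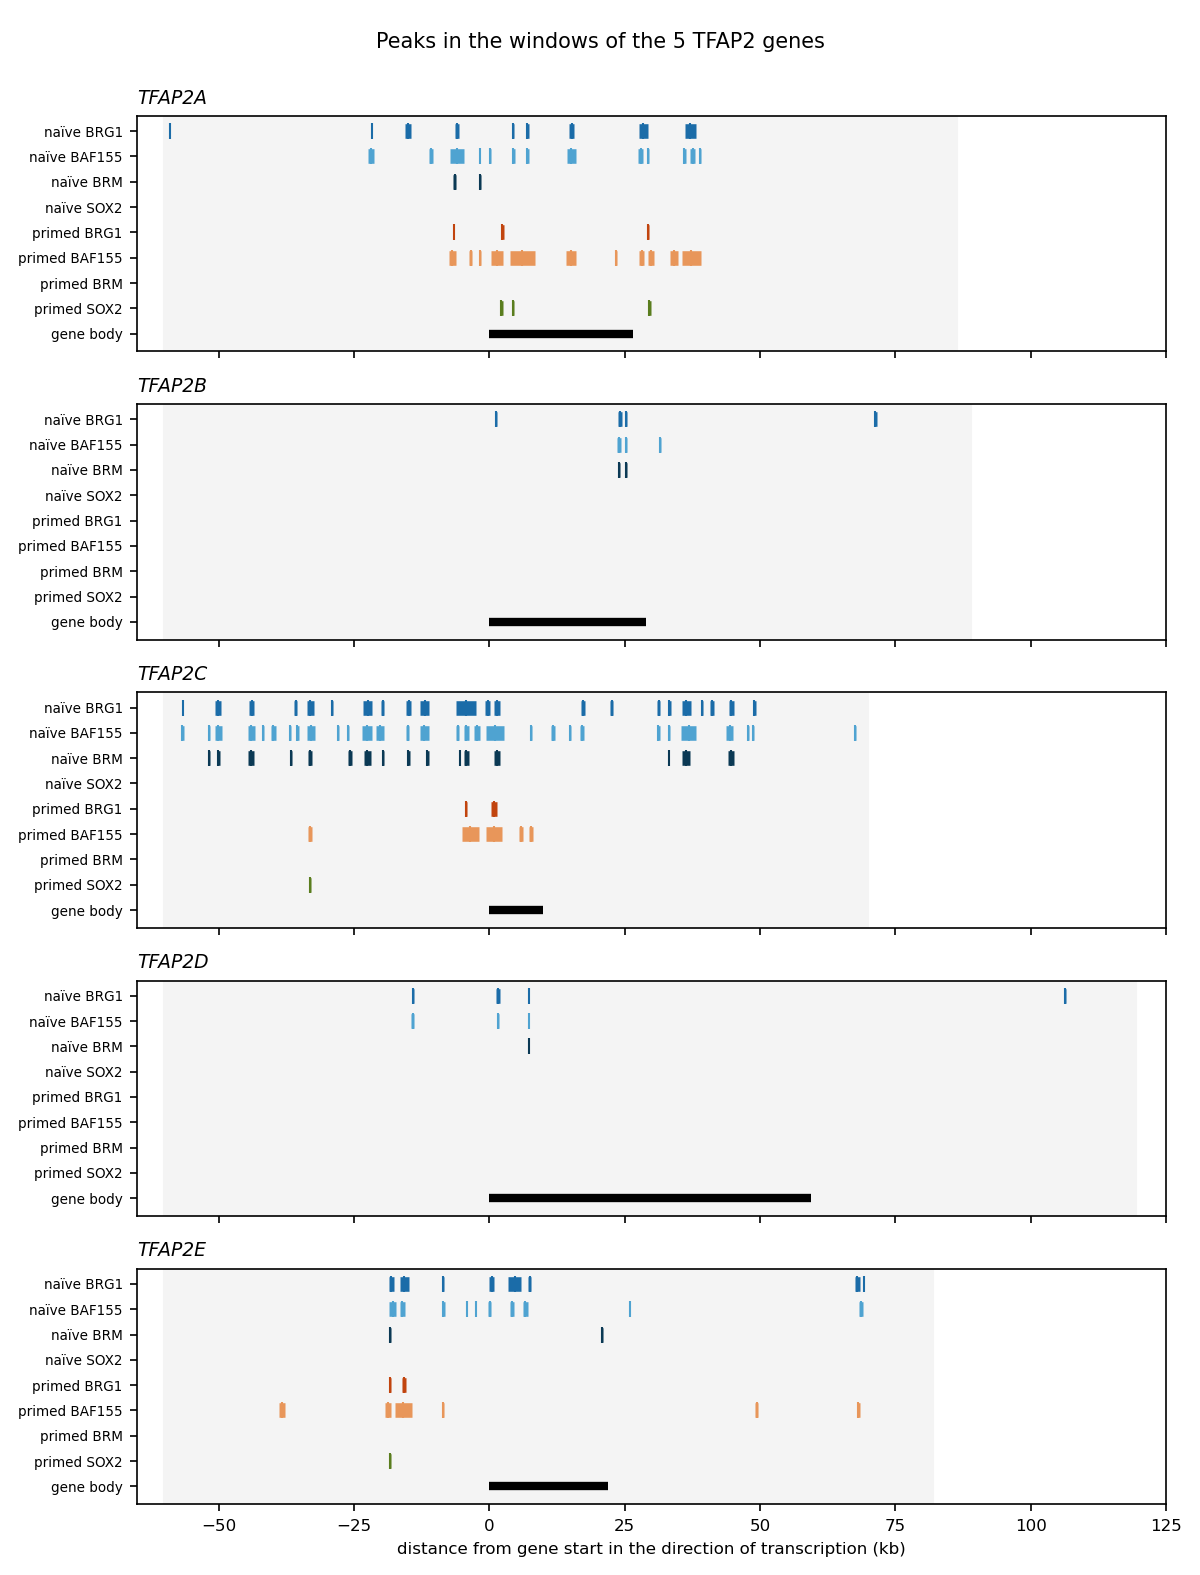
Peaks of the 8 lists (rows, coloured bars drawn at their width with a tick at the midpoint) at the 5 TFAP2 genes, by distance from the gene start in the direction of transcription (horizontal axis, kb). The grey area is the window counted and the black bar the gene body. Naïve BRG1, BAF155 and BRM peaks run through most of the TFAP2C window, primed peaks there lie between 33.1 kb upstream and 7.67 kb downstream of the start, and TFAP2B and TFAP2D have no primed peak.

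The regions at TFAP2C that both states shared were close to starts or in the gene. They were centred 33.0 kb upstream at the start of LINC01716 transcripts, 3.96 kb upstream at the noncoding gene ENSG00000289199, 0.901 kb downstream of the TFAP2C start, and 7.67 kb downstream in an intron. Both primed BRG1 peaks and 4 of the 5 primed BAF155 peaks of the locus fell into them. The 1 primed-only region, chr20:56634793-56635501, lay in an intron 5.84 kb from the start and held a BAF155 peak with a fold of 3.16. The TFAP2C promoter was thus occupied in both states, with naïve BRG1, BAF155 and BRM peaks of fold 3.53, 3.66 and 3.54 and primed BRG1 and BAF155 peaks of fold 3.25 and 3.25. This naïve BRG1 peak, the BRM peak and the primed BRG1 peak began inside the gene, at its other annotated start 0.928 kb downstream. The naïve BRG1 peak over the gene start itself, chr20:56628475-56629513, had a fold of 2.53, which 91.2% of the list matched or passed.

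At TFAP2A the state-specific regions were placed differently. Of its 5 naïve-only regions, 4 lay upstream, at 10.7, 15.0, 21.9 and 59.1 kb, among the noncoding genes LINC00518, MIR5689HG and LINC02522. Its 4 primed-only regions lay nearer to or in the gene, from 3.46 kb upstream to 34.1 kb downstream of the gene start. These distances run from the most 5′ start. The canonical start, 4.585 kb into the gene, lay in a common region, chr6:10411270-10415795. It was covered by naïve BRG1 and BAF155 peaks and a primed BAF155 peak. Near the most 5′ start, and upstream of the canonical one, a primed-only region, chr6:10416986-10419378, and a naïve-only region, chr6:10419299-10419750, overlapped by less than 25% of either. The primed one held BRG1, BAF155 and SOX2 peaks, and the naïve one held a BAF155 peak with a fold of 2.38, which 96.8% of the list matched or passed.

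The window of TFAP2E holds the coding genes KIAA0319L, NCDN and PSMB2, so part of its BAF lies at other promoters. All 3 common regions lay outside TFAP2E, 16.8 and 8.52 kb upstream at KIAA0319L and NCDN and 68.3 kb downstream at PSMB2. Of its 7 naïve-only regions, 3 lay in the TFAP2E gene body, and 2 of these reached annotated starts of TFAP2E. The gene body held no primed peak.

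BRM is the alternative ATPase to BRG1, and within the family it was most frequent at TFAP2C. Of the 16 naïve BRM peaks there, 12 lay upstream, 1 in the gene and 3 downstream, from 51.7 kb upstream to 44.6 kb downstream. All 16 overlapped a naïve BAF region by the 25% rule (exact interval 79.4 to 100%), against 94.3% of the 17413 peaks of the whole list. The share at TFAP2C fell to 50.0% when at least 50% of both intervals had to overlap.

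Read from the BAF side, 15 of the 32 naïve BAF regions of TFAP2C carried BRM (46.9%, interval 29.1 to 65.3%). At the paralogues 6 of 32 did (18.8%, interval 7.21 to 36.4%), and over the genome 20.4% of 77195 regions. BRG1, BAF155 and BRM were all present at 12 of the 32 TFAP2C regions (37.5%, interval 21.1 to 56.3%), at 5 of the 32 of the paralogues (15.6%) and at 18.6% genome-wide. BRG1 with BAF155, whatever the BRM, was found at 53.1% of the TFAP2C regions and 53.4% of all naïve regions. The intervals for BRM at TFAP2C and at the paralogues overlap, so that difference is a description.

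All 3 subunits coincided at 12 regions, and the 3 with the highest BRM folds are named here. The promoter had a BRM peak 1.36 kb from the gene start with a fold of 3.54. Intergenic sites 11.4 and 22.5 kb upstream had BRM folds of 3.52 and 3.30. At the 11.4 kb site the BRG1 and BAF155 folds were 3.56 and 3.63. The 22.5 kb site, whose centre is printed above, had the highest BRG1 and BAF155 folds of the locus, 3.75 and 3.91. Of the whole lists, 8.10% of BRG1 peaks and 5.86% of BAF155 peaks had folds as high.

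The paralogues had 1 or 2 BRM peaks each. At TFAP2B its 2 BRM peaks lay 24.0 and 25.3 kb into the gene, each together with BRG1 and BAF155. At TFAP2A the BRM peaks lay 1.70 and 6.42 kb upstream, both in common regions. At TFAP2E 1 lay at the start of KIAA0319L and the other, 20.8 kb into the gene in an intron, touched no BRG1 or BAF155 peak.

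Peak strength separated the loci in another order than peak number. The naïve peaks of TFAP2C were of ordinary strength, with a median fold over input of 2.81 for BRG1, 2.98 for BAF155 and 3.10 for BRM, against 2.93, 2.89 and 3.27 for the whole lists. Of the 22 BRG1 peaks 8 lay above the list median, of the 30 BAF155 peaks 18, and of the 16 BRM peaks 4.

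The strongest naïve site of the family was in TFAP2D, which had few peaks. A region of 326 bp, chr6:50720612-50720937, lay in an intron 7.25 kb from the gene start. Its BRG1 peak had a fold of 5.79, its BAF155 peak 5.37 and its BRM peak 5.75. Only 255 naïve BRG1 peaks (0.441%), 531 BAF155 peaks (0.852%) and 272 BRM peaks (1.56%) were at least as strong. The 3 other BRG1 peaks in the TFAP2D window had folds of 2.67, 2.98 and 3.03.

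Folds at the other paralogues lay on both sides of the list medians. At TFAP2A the highest naïve folds were 3.32 for BRG1, 2.94 for BAF155 and 3.25 for BRM, and 1 of 9 BRG1 and 2 of 13 BAF155 peaks lay above the list medians. At TFAP2E the median naïve BRG1 fold was 2.51, which 92.2% of the list matched or passed, while its BAF155 median was 2.91 and 5 of its 10 BAF155 peaks lay above the list median. At TFAP2B the highest folds, 3.35 for BRG1 and 3.58 for BAF155, belonged to the same site, 25.3 kb into the gene over an exon.

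**Figure D4:**
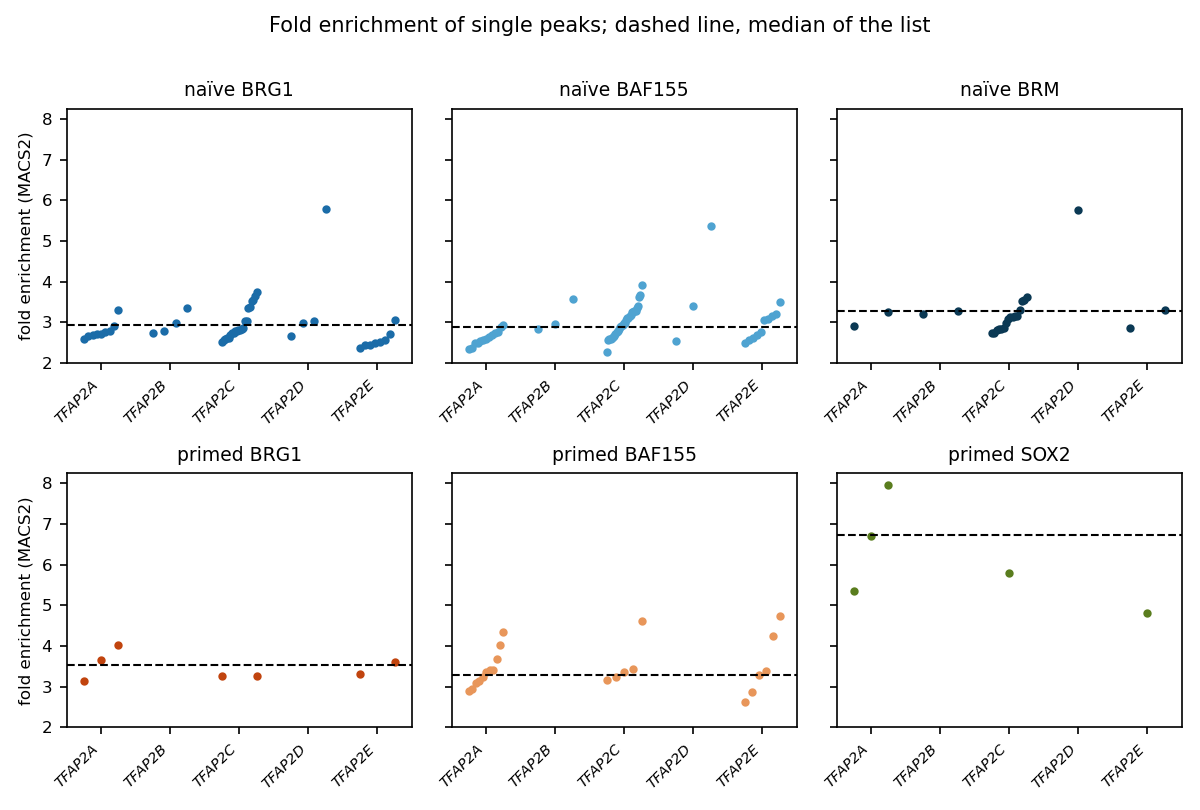
Fold enrichment over input as the peak caller gave it (vertical axis, linear ratio) for every peak at the 5 TFAP2 genes (horizontal axis), in 1 panel per list, with the median of the whole list as a dashed line. Points of a gene are spread sideways in order of fold. The TFAP2D site stands alone above 5 in the 3 naïve panels, the TFAP2C peaks lie between 2.28 and 3.91 there, and the primed SOX2 folds run from 4.80 to 7.97.

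Relative to their lists, the primed peaks of TFAP2A were stronger than its naïve ones. Its highest primed folds were 4.03 for BRG1 and 4.34 for BAF155, both in the primed-only region in the first part of the gene body, and 6 of its 11 BAF155 peaks lay above the list median of 3.28. At TFAP2C the highest primed BAF155 fold was 4.62, at the common region 33.0 kb upstream, and at TFAP2E 4.73, at the start of KIAA0319L. Folds of naïve and primed lists come from different libraries and inputs and were not compared with each other.

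SOX2, a pluripotency factor, had peaks near the family in the primed list alone. No naïve SOX2 peak lay in any of the 5 windows, from a list of 1940, and 5 primed SOX2 peaks did, from a list of 9290. TFAP2A had 3, TFAP2C 1, TFAP2E 1, and TFAP2B and TFAP2D had 0. The primed list is the longer, and of all genes 35.0% were primed-higher for SOX2 and 3.79% naïve-higher. No naïve SOX2 peak lay in the windows of 86.8% of all genes, and no primed one in those of 57.5%.

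At TFAP2A the strongest SOX2 peak, chr6:10417183-10417744, lay in the gene body 2.20 kb from the start, with a fold of 7.97. A second, chr6:10415171-10415446, lay 4.35 kb into the gene, with a fold of 6.71. It was directly upstream of the canonical start, which is 4.585 kb from the most 5′ start, and the strongest peak lay farther upstream of that start. The third, chr6:10389877-10390327, lay 29.6 kb from the most 5′ start and downstream of the gene, with a fold of 5.34. The list median was 6.73. At TFAP2C the SOX2 peak at 33.0 kb upstream had a fold of 5.79 and lay in an exonic stretch of LINC01716, and at TFAP2E the peak 18.3 kb upstream had a fold of 4.80. Every SOX2 peak of the family except the strongest at TFAP2A was thus below the list median.

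All 5 SOX2 peaks touched a primed BAF region, against 88.8% of the whole primed list. Of the 5, 4 also touched a naïve BAF region, against 42.6% of the list, the exception being the strongest TFAP2A peak. At TFAP2C and TFAP2E the primed SOX2 peak coincided with a naïve BRM peak, chr20:56595738-56596517 with a fold of 3.16 and chr1:35554951-35555119 with a fold of 2.86. With 5 peaks these shares are a list of cases.

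By the searched words the naïve-only regions of TFAP2C could not be told apart from naïve-only regions in general. Of the 28 central windows of 200 bp, 4 held the TFAP2 word (14.3%, interval 4.03 to 32.7%, against 10.7% genome-wide), 6 a SOX word (21.4%, against 22.3%), 1 a KLF word (3.57%, against 5.52%), 1 the ZIC word (3.57%, against 7.12%) and 0 the octamer (interval up to 12.3%, against 2.76%). Each genome-wide share lay inside the TFAP2C interval, but with 28 windows the intervals are wide, so a likeness was not shown. At the paralogues 0 of 20 windows held the TFAP2 word, which allows a share of up to 16.8%. The median GC content of the windows was 47.3% at TFAP2C and 49.5% genome-wide.

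The genes of 12 TFAP2 partners and regulators were counted in the same way. They comprise the coactivators EP300, CREBBP, CITED1, CITED2 and CITED4, the inhibitors KCTD1 and KCTD15, and the binding partners WWOX, NPM1, DEK, YEATS4 and KDM5B. For BRG1, 8 of the 12 were naïve-higher and 0 primed-higher (background 74.2% and 0.958%). For BAF155, 4 were naïve-higher (EP300, CREBBP, NPM1 and KDM5B) and 2 primed-higher (WWOX and DEK), against 18.0% and 10.4% of all genes. For SOX2, 2 were naïve-higher (NPM1 and KDM5B) and 5 primed-higher, against 3.79% and 35.0%. At NPM1 and KDM5B, and at the primed-higher CREBBP and CITED1, the SOX2 call rests on 1 peak each.

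The partner genes had a median of 5.5 naïve-only and 1.5 primed-only BAF regions, against 4 and 2 for all genes. More naïve-only than primed-only regions were found at 8 of the 12, against 66.1% of all genes, and at all 5 family members. EP300, the acetyltransferase that TFAP2 factors recruit, had 12 naïve-only and 0 primed-only regions, and CREBBP 11 and 2. KDM5B, a histone demethylase, had 14 and 1. WWOX, a very long gene, had 6 naïve-only and 26 primed-only regions. None of these 12 partner genes reached the 28 naïve-only regions of TFAP2C, and the highest counts among them were 14, at NPM1 and KDM5B.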

How the data were processed

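ChIP-seq of BRG1, BAF155, BRM and SOX2 was made in naïve and primed WIBR3 cells, with single-end reads for the BAF subunits and paired-end reads for SOX2. Per the methods of the study, the authors mapped reads to hg38 with Bowtie2 (version 2.3.4 in the submitters' processing notes) and called peaks against input with MACS2, as broad peaks for BAF subunits and narrow peaks for SOX2. Whether the SOX2 libraries were pooled is not given in the sources used here. These methods describe no step that separates reads of the mouse feeder cells. The deposited lists give positions and, for all but primed BRM and the second SOX2 library of each state, the authors' fold over input as a linear ratio, with −log10 p-values and q-values. The lowest −log10 q deposited was 1.00 for BAF lists and 1.31 for SOX2.

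Here peaks on the autosomes, X and Y were assigned to a window (gene body with 60 kb on each side, GENCODE release 44) by their midpoint. BRG1 and BAF155 peaks were merged per state, and overlap meant at least 25% of either interval. Intervals are exact Clopper-Pearson at 95% and cover counting error only. The interval of the difference takes the square root of the summed squared distances to both exact limits. The calls add a pseudocount of 1 and use no test. Motif words were searched in the central 200 bp. No promoter sequence of TFAP2C was used, and 1 gene of the partner list and some site sequences are not reported here. Software was Python 3.11.15, pandas 2.3.3, SciPy 1.17.1 and matplotlib 3.10.9. The interval code was tested on simulated intervals. The members, gene lists and rules were chosen with earlier results of these data known. The peaks described are those at annotated starts of a member, the 3 of highest fold per list, and every SOX2 peak, summarised where they were many. The alternatives were other flanks and window anchors, thresholds on q and fold, equal list lengths, other overlap rules, and BRG1 or BAF155 alone.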

Additional observations from a re-analysis of the deposited data

How the results depend on the processing

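Of 81 recalculated values, 57 moved by less than their counting interval or, for counts, by less than 1.5 times, 16 moved further and 8 reversed. The causes were not tested except where stated. The naïve-only share at TFAP2A reversed to 42.9% with 20 kb flanks, to 16.7% with −log10 q of at least 3, to 0% with a fold of at least 4, to 28.6% with equal list lengths and to 42.9% with BAF155 peaks alone. With a fold of at least 4, few regions were left, and the shares at TFAP2C (0 of 1 region) and TFAP2E (0 of 2) fell to 0%, the difference between TFAP2C and its paralogues became -20.0 points, TFAP2B gave no value, and all 20033 genes had as many naïve-only regions as TFAP2C, which had 0. The difference rose to 44.8 points with −log10 q of at least 3 and to 31.0 with equal list lengths and fell to 5.71 with 20 kb flanks. Its interval lay above 0 in 5 of 10 alternatives, which is a description and no test. TFAP2E had 2 regions of each kind (50.0%) with −log10 q of at least 3. TFAP2E rose to 100% with 20 kb flanks and with BRG1 alone, and TFAP2C to 100% with BRG1 alone.

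The number of genes with at least as many naïve-only regions as TFAP2C, itself included, was 49 in the report. It was 2984 with 20 kb flanks, 123 with 100 kb flanks, 2 around the gene start and 102 with −log10 q of at least 3. With equal list lengths it was 24, with 50% overlap of both intervals 135 and with BRG1 alone 420. It was 7 among genes alone in their windows and 3 per 100 kb, both chosen after seeing the data. SOX2 peaks at the loci rose from 5 to 8 with 100 kb flanks and were 5 to 5 with either SOX2 library of a state left out, since the lists are identical. The share of BRM peaks inside BAF regions at TFAP2C was 50.0% when 50% of both intervals had to overlap. No paired analysis was possible because each group rests on 1 list, with no test between groups. Read depth was not used, the BAF lists reach down to weak peaks, and counts of 4 to 9 state-specific regions at the paralogues leave wide intervals.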
